A study of Mus musculus with 8 samples.

Results

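Chromatin accessibility around 6 Sox genes, Sox1, Sox2, Sox4, Sox9, Sox11 and Sox21, and the counts of SOX motifs were measured in single nuclei of the mouse embryonic forebrain. The samples were wild-type tissue from the cortex (CTX) and the ganglionic eminences (GE), of which the medial is called MGE, the lateral LGE and the caudal one CGE, with 2 samples of each. All were labelled E12.5 (embryonic day), except CTX replicate 2, which was labelled E14.5. No transgene, treatment or sorting is named in the labels, and nothing says whether the 2 samples of a region came from separate embryos or litters, so the p-values measure only the spread between these samples. A peak belonged to a gene when it lay within 50 kb of the gene body. Peaks were merged over the 8 samples into 292532 regions, of which 115 lay near a member: 23 near Sox1, 21 each near Sox2, Sox9 and Sox11, 17 near Sox4 and 12 near Sox21. A peak of every sample was present in 35 of the 115 regions (30.4%), against 23.3% of all regions, and those 35 were tested. Of the 579 motifs in the motif table, the 14 whose name began with SOX were members.

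SOX proteins bind DNA through an HMG box, which bends the double helix, and commonly recognise a short core such as ACAATG or ACAAAG. Sox1 and Sox2 belong to the SOXB1 group, which keeps neural progenitors in the ventricular zone (VZ) undifferentiated, and Sox21 belongs to the SOXB2 group, whose members act largely as repressors. Sox9 is a SOXE gene of radial glia and later of astrocytes, and Sox4 and Sox11 are SOXC genes that act in newly born neurons. All 6 are short genes without introns or with few, and Sox2 lies inside the long non-coding gene Sox2ot.

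The labels were checked first. The library labelled E12.5 in CTX (replicate 1) and the library labelled E14.5 (replicate 2) both had more accessibility over 5 cortical genes than any GE sample, with a summed 661 and 387 CPM (counts scaled to the library total) against 177 to 234. In replicate 2 this rested mostly on Emx1 (173 CPM against 35.3 to 57.6 in GE), while its Neurod2 (16.9 CPM) was within the range of GE and its Tbr1 (84.2 CPM) below that of 3 GE samples. Gad2 had 34.5 and 43.0 CPM in CTX and 123 to 150 CPM in GE, and Dlx2 had 60.6 and 62.3 CPM in CTX and 173 to 549 CPM in GE. Together with Dlx1, Dlx5 and Dlx6 they summed to 247 and 353 CPM in CTX and to between 888 and 2142 CPM in GE. In this sum Dlx1 and Dlx2 had equal values in 4 of the 6 GE samples, as did Dlx5 and Dlx6 in 5, so that the same value enters for both genes there, but not in LGE replicate 1, which had the lowest sum. In that library Dlx5 (66.3 CPM) and Dlx6 (106 CPM) were no higher than in CTX replicate 2 (68.1 and 129 CPM). The MGE genes Nkx2-1, Lhx6 and Lhx8 summed to 924 and 737 CPM in MGE and to at most 164 CPM elsewhere. The pair of CTX libraries held very different nuclei. In replicate 1, Neurod2 had 158 CPM, Neurod6 126 CPM and Dcx 98.1 CPM, and 76.6% of nuclei were glutamatergic-like and 19.4% progenitor-like. In replicate 2 these genes had 16.9, 43.0 and 39.0 CPM, 9.71% of nuclei were glutamatergic-like and 84.8% took no name from the markers. Of the progenitor genes, Nes had 65.6 CPM in replicate 1 and 113 CPM in replicate 2 and Hes5 151 and 221 CPM, while Fabp7 had 63.6 and 58.2 CPM. The neuronal genes were thus higher in the library with the younger label. Whether the age labels or the libraries of CTX were exchanged was not tested, so the labelled age of a CTX value is uncertain. Age, cell makeup and library cannot be told apart within CTX, and the CTX values are given by library below. Any 2 libraries shared 15 to 56 nuclear barcodes, out of 3465 to 6845 nuclei per library. MGE replicate 1 and LGE replicate 1 had the fewest peaks (105456 and 103633, against 142292 to 182638 in the others).

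Of the 35 regions, 6 covered the start site of a Sox gene and 29 lay apart from it. The start-site regions were among the widest of the series. The Sox2 region (chr3:34634526-34668969, GRCm38) spanned 34.4 kb, and only 10 of the 68274 tested regions, itself among them, were as wide or wider. The Sox1 region (chr8:12381877-12405114) spanned 23.2 kb, that of Sox21 15.9 kb, of Sox11 13.1 kb, of Sox9 12.1 kb and of Sox4 10.4 kb, against a median of 1533 bp over all tested regions. They arose from 1 to 5 peaks per sample and held between 46.4% (Sox9) and 96.1% (Sox21) of the counts of their gene's window. A window sum below therefore mostly reports the broad open stretch over the gene. It does so less for Sox9 and Sox4, where that stretch held 46.4% to 59.0% and 52.7% to 63.4% of the window's counts.

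The sequences of 3 distal regions with large differences by adjusted p, 1 per gene and outside exons, are given next. Each is the central 300 bp of the merged region on the plus strand of GRCm38, read from the RefSeq genome, with ACAATG or ACAAAG on either strand in capitals. They are a Sox9 region 44.5 kb downstream of the start site (chr11:112826579-112826878), a Sox11 region 21.4 kb upstream (chr12:27363842-27364141) and a Sox2 region 35.5 kb upstream (chr3:34614804-34615103).
Sox9 region: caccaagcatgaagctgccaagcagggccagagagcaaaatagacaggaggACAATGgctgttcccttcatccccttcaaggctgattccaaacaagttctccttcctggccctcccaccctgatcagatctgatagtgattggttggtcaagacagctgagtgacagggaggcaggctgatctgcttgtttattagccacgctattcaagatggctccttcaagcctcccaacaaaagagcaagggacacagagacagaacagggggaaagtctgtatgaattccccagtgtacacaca
Sox11 region: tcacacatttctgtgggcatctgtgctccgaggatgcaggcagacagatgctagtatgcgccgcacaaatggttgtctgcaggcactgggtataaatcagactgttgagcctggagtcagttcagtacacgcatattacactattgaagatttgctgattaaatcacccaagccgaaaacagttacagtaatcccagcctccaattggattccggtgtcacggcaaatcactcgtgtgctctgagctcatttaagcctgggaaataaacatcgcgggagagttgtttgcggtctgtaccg
Sox2 region: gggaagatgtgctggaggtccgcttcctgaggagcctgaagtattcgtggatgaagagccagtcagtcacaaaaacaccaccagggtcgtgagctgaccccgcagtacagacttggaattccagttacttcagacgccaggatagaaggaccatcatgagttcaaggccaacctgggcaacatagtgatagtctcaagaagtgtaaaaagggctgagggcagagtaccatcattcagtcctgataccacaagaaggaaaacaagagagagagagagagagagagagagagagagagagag
A SOX core was present in the Sox9 stretch alone, as 1 copy of ACAATG. The genome annotation marks 31.3% of the Sox2 stretch as repeats (soft-masked letters), 7.67% of the Sox9 stretch and none of the Sox11 stretch. The central 300 bp held ACAATG or ACAAAG in 12 of the 35 regions (34.3%), against 35.5% of the 68274 regions. Within these 300 bp ACAATG was found in 5 (14.3%, against 9927 of the 68274) and ACAAAG in 8 (22.9%, against 25.0%), with 1 region holding both. Over the whole regions, which are of unequal length, either was found in 33 of 35 (94.3%), against 84.1%. The median GC content was 49% in members and 49.7% in all regions. A match is a description of the letters and not a site of binding.

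The sum of all peak counts within 50 kb of each gene was compared between regions of the forebrain. These sums are in CPM of the sums over all protein-coding genes. Per kilobase of window, the level was highest for Sox2 (1.70 ± 0.22 CPM per kb, SD, n = 8) and Sox1 (1.51 ± 0.44), followed by Sox21 (0.87 ± 0.09), Sox4 (0.81 ± 0.03), Sox9 (0.75 ± 0.05) and Sox11 (0.75 ± 0.10). Sox2 and Sox1 lay within each other's spread, and so did Sox9 and Sox11.

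Sox1 had the widest range of the 6 windows and was lowest in CTX. Its window held 97.3 and 118 CPM in CTX, 244 and 180 in MGE, 160 and 188 in LGE, and 133 and 147 in CGE (replicates 1 and 2). Both CTX samples were below all 6 GE samples, and CTX against GE differed by -0.68 on the log2 scale (SE 0.15, adjusted p = 0.0357, edgeR quasi-likelihood test). It was the 1 member window of 6 called, against 6.24% of all windows called in either direction and 0.904% called lower. The call was lost without CTX replicate 1 (-0.55, adjusted p = 0.13), and without any 1 of 4 GE samples, namely the first of MGE, the second of LGE and either of CGE (adjusted p between 0.0590 and 0.0930). It was also lost with the peaks' covered length as an offset (-0.32, adjusted p = 0.212), when replicate number entered as a block (adjusted p = 0.0594) and over the gene body with 2000 bp upstream (-1.07, adjusted p = 0.162). In a sum over nuclei, fewer nuclei with an open region and less opening per nucleus cannot be told apart. The share of progenitor-like nuclei, a class named from marker genes as described below, was 19.4% and 0.0809% in CTX and ran from 26.5% to 49.7% in GE. In CTX replicate 2, however, 84.8% of nuclei took no name, so its 0.0809% does not measure how many progenitors it held. With finer clusters the share in CTX replicate 1 was 0. The part of cell makeup in the Sox1 difference was not tested. CTX replicate 1 had less Sox1 than any GE sample in progenitor-like nuclei (343 against 468 to 732 CPM) and in neuron-like nuclei (184 against 237 to 488). These values are in CPM of all peak counts of the class, another scale than the window sums above. The neuron-like class pools glutamatergic-like nuclei (3145 of 3282 in CTX replicate 1) and GABAergic-like nuclei. In glutamatergic-like nuclei alone, CTX replicate 1 had 184 CPM and the GE samples with at least 50 of them 162 to 204. In GABAergic-like nuclei it had 228 CPM (137 nuclei) and the GE samples 284 to 488.

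The other 5 windows were not called between CTX and GE. Sox2, a core factor of neural stem cells, had 147 and 171 CPM in CTX, 216 and 170 in MGE, 173 and 195 in LGE, and 152 and 165 in CGE, and the groups overlapped (-0.16 on the log2 scale, SE 0.12, adjusted p = 0.498). Sox4 had the narrowest range, from 80.5 to 90.7 CPM over the 8 samples (-0.06, SE 0.08, adjusted p = 0.708). Its log2 fold was 0.0013 over regions with a peak in all 8 samples. Sox9 lay between 72.4 and 86.5 CPM (0.06, SE 0.09, adjusted p = 0.743), and the sign turned with the covered-length offset (-0.43, adjusted p = 0.197), over the gene body (-0.071) and without CTX replicate 2 (-0.018). Sox11 had 86.8 CPM in CTX replicate 1 and 66.5 CPM in CTX replicate 2, and lay between 69.2 and 93.8 CPM in GE (-0.10, SE 0.14, adjusted p = 0.707). Its log2 fold was 0.076 without CTX replicate 2. Sox21 had 74.7 and 91.9 CPM in CTX and 82.4 to 101 CPM in GE (-0.15, SE 0.10, adjusted p = 0.451).

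**Figure D1:**
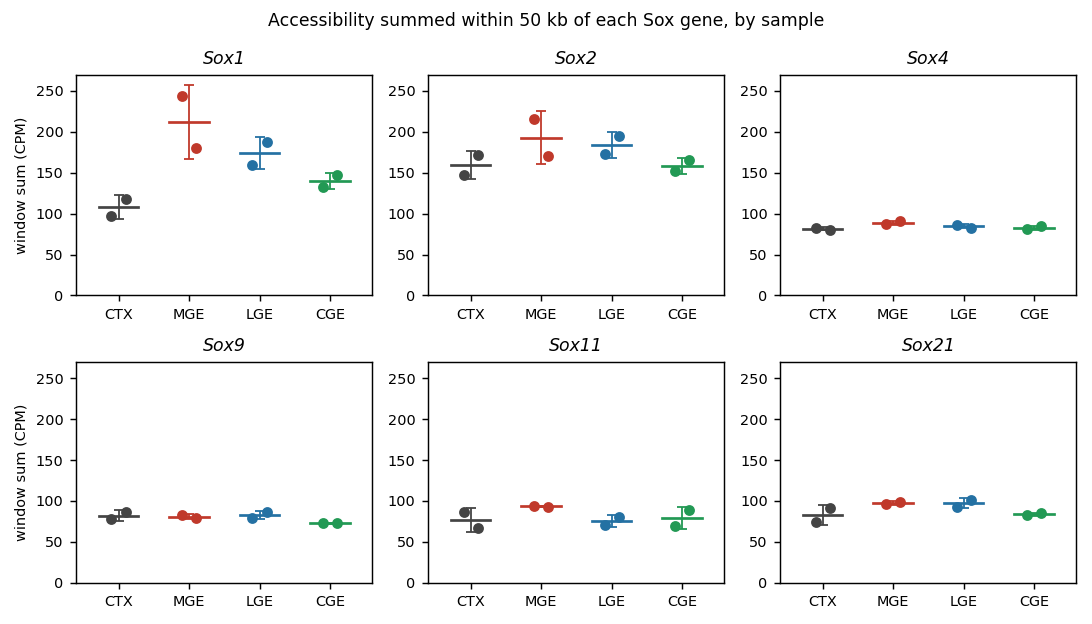
Peak counts summed within 50 kb of each Sox gene (y axis, CPM of all gene windows) for the 4 regions (x axis), with a point per sample, a line at the mean and bars of 1 SD (n = 2). Sox1 runs from 97.3 to 244 CPM with both CTX samples lowest, while Sox4 stays between 80.5 and 90.7 CPM.

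Between the eminences, no member window was called with edgeR, against 0.106% of all windows for MGE against LGE (0.0608% higher in MGE and 0.0456% lower), 0.127% for MGE against CGE (0.0659% higher and 0.0608% lower) and 0.0% for LGE against CGE. At an unadjusted p under 0.05 the counts of members were 0, 1 and 0, and those of all 19737 windows 1979, 2432 and 640. The 1 was Sox1, higher in MGE than in CGE by 0.61 on the log2 scale (SE 0.16, adjusted p = 0.219), with 244 and 180 CPM against 133 and 147. The MGE and CGE values did not overlap. DESeq2 called it (adjusted p = 0.00685), and it was the 1 member window DESeq2 called in that comparison, where it called 3.10% of all windows. With edgeR it was called without MGE replicate 2 or LGE replicate 2 (adjusted p = 0.0396 and 0.0428), while without MGE replicate 1 it was 0.36 (adjusted p = 0.71). Sox11 was 0.32 higher in MGE than in LGE (SE 0.14, adjusted p = 0.509), with 93.8 and 92.9 CPM against 70.8 and 80.8.

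Between CTX and GE, the median absolute log2 fold was 0.76 over the 29 distal regions and 0.19 over the 6 start-site regions. Over all tested regions it was 0.50 for the 55796 that covered no start site of a protein-coding gene and 0.15 for the 12478 that covered one. The gap between distal and start-site members was narrower between MGE and CGE (0.42 and 0.35) and between LGE and CGE (0.29 and 0.22), where the order turned with the covered length of peaks as an offset (0.28 and 0.33, and 0.30 and 0.31). Over all regions these were 0.41 and 0.17, and 0.26 and 0.11, and the order held with the offset (0.26 and 0.17, and 0.30 and 0.22). Between MGE and LGE the members had 0.49 and 0.16, and 0.41 and 0.05 with the offset. All regions had 0.40 and 0.14 there, and 0.29 and 0.14 with the offset. Of the 35 regions 10 were called (28.6%), against 14.9% of all regions, 3 of them higher and 7 lower in CTX, where 9.49% and 5.39% of all regions were called. Of the 10, 9 were distal, as were 29 of the 35 tested members. Of all 68274 tested regions, 55796 covered no start site of a protein-coding gene. The distal share among all called regions was not computed. The median log2 fold was -0.18 over the 35 members and 0.03 over all regions. Members without a peak in every sample were not tested, so these calls and this median leave them out. In raw counts such members went both ways, and how many went each way was not counted. The Sox21 region 24.9 kb downstream, without a peak in LGE replicate 1, had 1665 and 2122 in CTX and 0 to 178 in GE. The Sox1 region without a peak in CTX replicate 2 alone had 181 and 0 in CTX and 216 to 1240 in GE. Region values are in CPM of the counts in the 68274 tested regions, and distances are counted along the gene from its start site to the middle of the region. Because peaks were called in each sample apart, the length of a region covered by peaks differs between samples. That length comes from peaks of the same libraries and can itself follow accessibility, so an offset of it can remove part of a true difference. A call lost in this way is therefore not shown to come from peak length. The differences were also fitted with the covered length as an offset. With it, the median absolute log2 fold of the distal members was 0.27 and that of the start-site members 0.17, against 0.29 and 0.16 over all regions, and 6 of the 35 were called (9.17% of all regions), 5 of them among the 10 and in the same direction. The other was the Sox4 region 18.1 kb downstream, lower in CTX (-1.09, adjusted p = 0.0418, and -2.11 with adjusted p = 0.0716 without the offset).

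Near the SOXB genes, 5 distal or start-site regions were lower in CTX. The Sox1 start-site region had 166 and 212 CPM in CTX, 478 and 365 in MGE, 277 and 367 in LGE, and 217 and 280 in CGE. All GE samples were higher than both CTX samples, the nearest pair being 212 and 217 CPM (-0.77, SE 0.20, adjusted p = 0.0402, and -0.59 with adjusted p = 0.0482 with the offset). The Sox1 region 25.6 kb downstream (in an intron of Sox1ot) had few counts in CTX. It held 10 and 14 counts (0.09 and 0.19 CPM) in CTX and between 1.46 and 3.18 CPM in the GE samples (-3.92, SE 0.48, adjusted p = 0.00449). Its peaks covered 58 and 141 bp in CTX and 411 to 911 bp in GE, and with the offset it was not called (-0.96, adjusted p = 0.121). Reads outside the peaks of a sample are not counted.

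A Sox1 region 51.1 kb downstream (chr8:12445338-12447454, intergenic) had 5.12 and 8.36 CPM in CTX, 19.3 and 19.2 in MGE, 12.0 and 15.3 in LGE, and 8.83 and 8.85 in CGE. CTX was lowest and CGE lay close above it (-0.98, SE 0.26, adjusted p = 0.0454, and 0.0818 with the offset). The Sox2 region 29.3 kb downstream (chr3:34678717-34680682, over an exon of Sox2ot) had 2.96 and 2.63 CPM in CTX, 16.8 and 15.7 in MGE, 10.6 and 9.33 in LGE, and 8.62 and 7.99 in CGE. Its 4 groups did not overlap, in the order MGE, LGE, CGE and CTX (CTX against GE -1.98, SE 0.22, adjusted p = 0.00364). With the offset the difference was -0.73 and was not called (adjusted p = 0.0869). The Sox21 region 27.1 kb downstream (chr14:118209569-118210294, over an exon of 4933431J24Rik) had 1.42 and 1.10 CPM in CTX, 4.65 and 5.86 in MGE, 2.58 and 2.94 in LGE, and 2.58 and 3.22 in CGE (-1.46, SE 0.29, adjusted p = 0.0187, and -1.05 with adjusted p = 0.0197 with the offset). The call without the offset was lost without LGE replicate 1, LGE replicate 2 or CGE replicate 2 (adjusted p between 0.0520 and 0.0635).

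Near Sox9, regions of both directions were called. The region 44.5 kb downstream (chr11:112826128-112827330, over an exon of 4933434M16Rik, which its central 300 bp given above lies outside) had the lowest adjusted p among the members. It had 2.04 and 1.25 CPM in CTX, 11.4 and 12.0 in MGE, 15.1 and 15.5 in LGE, and 12.6 and 14.4 in CGE. Every GE sample stood far above both CTX samples (-3.03, SE 0.29, adjusted p = 0.00271, and -1.94 with adjusted p = 0.00266 with the offset). In contrast, 2 further regions were higher in CTX. The region 52.3 kb downstream (chr11:112832933-112836053, intergenic) had 4.91 and 5.88 CPM in CTX, 2.61 and 3.35 in MGE, 1.11 and 1.13 in LGE, and 0.85 and 1.44 in CGE (1.79, SE 0.28, adjusted p = 0.00855). The region 9.5 kb upstream, in an intron of BC006965 and described although it did not have the lowest p, had 4.44 and 5.84 CPM in CTX and 1.33 to 3.24 CPM in GE (1.43, SE 0.25, adjusted p = 0.0120). Both differences vanished with the covered-length offset (-0.08, adjusted p = 0.916, and -0.09, adjusted p = 0.899), the peaks there covering 1717 to 2345 bp in CTX and 280 to 1469 bp in GE.

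Near the SOXC genes, a Sox4 region 11.4 kb downstream (chr13:28941655-28943043, intergenic) was higher in CTX. It had 8.02 and 17.8 CPM in CTX, 2.72 and 3.75 in MGE, 4.90 and 5.34 in LGE, and 3.33 and 2.35 in CGE (1.84, SE 0.32, adjusted p = 0.0126, and 1.09 with adjusted p = 0.0322 with the offset). CTX replicate 2 was far above CTX replicate 1, and both lay above GE. Without CTX replicate 2 the difference was 1.16 (adjusted p = 0.0177). The call was lost without CGE replicate 2 (adjusted p = 0.0501). The Sox11 region 4.2 kb upstream (chr12:27345915-27347598, intergenic) was lower in CTX, with 1.38 and 1.41 CPM against 9.56 and 11.6 in MGE, 2.50 and 3.82 in LGE, and 3.34 and 4.41 in CGE (-1.86, SE 0.30, adjusted p = 0.0100, and -0.96 with adjusted p = 0.0303 with the offset). The start-site regions of Sox2, Sox4, Sox9, Sox11 and Sox21 were not called, with log2 folds between -0.27 and -0.09 and adjusted p between 0.265 and 0.715.

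**Figure D2:**
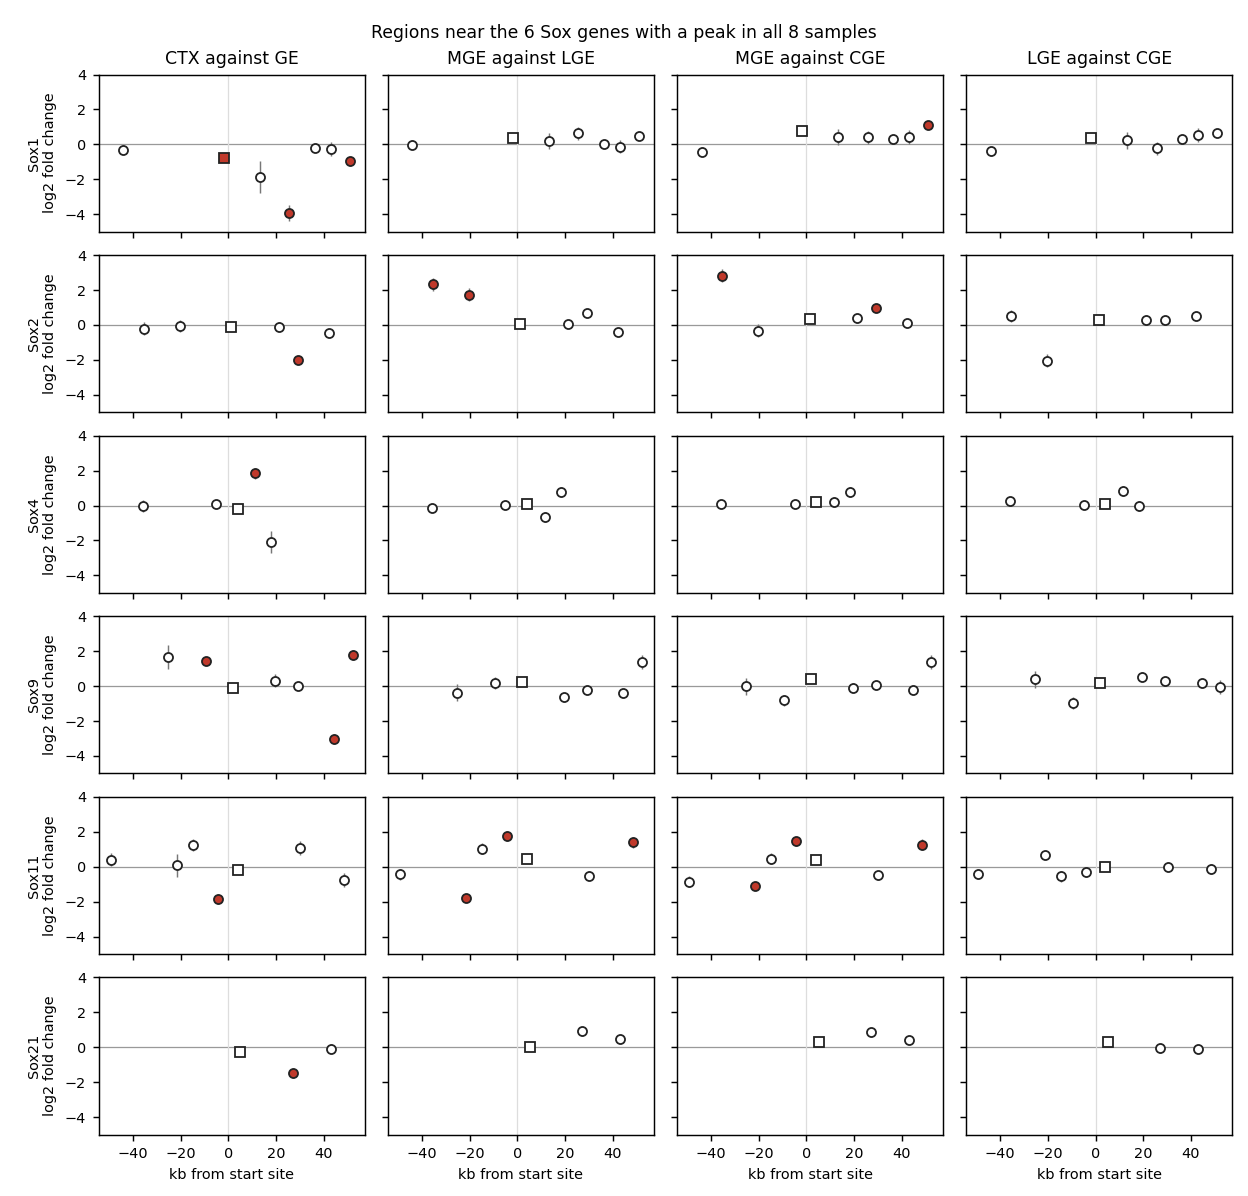
Log2 fold changes with their SE (y axis) of the 35 tested regions against the distance of the region's middle from the gene's start site in kb (x axis), with a row per gene and a column per comparison. Squares are start-site regions, circles distal regions and red marks regions called without the covered-length offset (adjusted p of 0.05 or less). In the CTX column 9 of the 10 red marks are circles, and in the MGE columns all are, as are 29 of the 35 regions in each column.

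Within the eminences, MGE differed from LGE and CGE at a few regions. MGE and LGE differed at 5 of the 35 regions (14.3%), against 10.6% of all regions, 4 of them higher in MGE (4.86% of all regions) and 1 lower (5.79%). MGE and CGE differed at 6 regions (17.1%), against 9.4% of all regions, 5 higher in MGE (3.56%) and 1 lower (5.84%). With the covered-length offset 6 regions were called between MGE and LGE (6.48% of all regions), 3 higher and 3 lower in MGE, and 5 between MGE and CGE (5.09%), all higher in MGE. Among the latter was the Sox1 start-site region, which was not called without the offset (0.76, adjusted p = 0.0612, and 0.67 with adjusted p = 0.0230 with the offset). The eminences also differed in the classes of nuclei described below. GABAergic-like nuclei made up 52.2% and 61.1% in MGE, 36.1% and 32.2% in LGE, and 38.3% and 37.7% in CGE (replicates 1 and 2). Glutamatergic-like nuclei made up 0.292% and 1.9% in MGE, 13.4% and 10.4% in LGE, and 19.6% and 25.9% in CGE. The part of cell makeup in the differences between eminences was not tested. These comparisons share the MGE samples. They rest on a model of the 6 GE samples, and none of the 11 calls made without the offset held when all 8 samples were in one model, in which the spread between the CTX samples enters (0.694% and 0.325% of all regions called).

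The Sox2 region 35.5 kb upstream (chr3:34613941-34615968, over an exon of Sox2ot that its central 300 bp lies outside), whose sequence is given above, was open mainly in MGE. It had 1.74 and 3.16 CPM in CTX, 7.40 and 11.2 in MGE, 1.34 and 2.37 in LGE, and 1.16 and 1.45 in CGE. MGE exceeded LGE by 2.32 (SE 0.36, adjusted p = 0.00786) and CGE by 2.83 (SE 0.37, adjusted p = 0.00538), and with the covered-length offset by 1.03 and 1.30 (adjusted p = 0.0322 and 0.0104). With all 8 samples in one model the adjusted p-values were 0.0809 and 0.0686. The Sox11 region 4.2 kb upstream, described above as lowest in CTX, was highest in MGE (1.74 over LGE, SE 0.29, adjusted p = 0.00971, and 1.44 over CGE, SE 0.28, adjusted p = 0.0198). With the offset these were 1.08 and 1.25 (adjusted p = 0.0105 and 0.00446). The difference from CGE was not called without MGE replicate 2, CGE replicate 1 or CGE replicate 2 (adjusted p between 0.0510 and 0.119).

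The Sox11 region 21.4 kb upstream (chr12:27363271-27364714, intergenic) went the other way. It had 5.13 and 4.64 CPM in MGE, 16.1 and 17.6 in LGE, and 11.4 and 9.81 in CGE, so that the 3 eminences did not overlap. MGE was below LGE by -1.79 (SE 0.20, adjusted p = 0.00292) and below CGE by -1.12 (SE 0.20, adjusted p = 0.0131), and with the offset the first was called and the second was not (adjusted p = 0.0542). The same region had 17.9 CPM in CTX replicate 1 and 2.14 CPM in CTX replicate 2. The difference from CGE was not called without CGE replicate 1 or CGE replicate 2 (adjusted p = 0.0981 and 0.0539).

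Of the remaining called regions, the Sox1 region 51.1 kb downstream was higher in MGE than in CGE by 1.12 (SE 0.19, adjusted p = 0.0119) and by 1.06 with the offset (adjusted p = 0.00592). Without the offset it was not called without CGE replicate 1 or CGE replicate 2 (adjusted p = 0.0715 and 0.0780). The Sox2 region 29.3 kb downstream was higher in MGE than in CGE by 0.97 (SE 0.19, adjusted p = 0.0190, and 0.85 with adjusted p = 0.0283 with the offset) and by 0.69 over LGE (SE 0.19, adjusted p = 0.0541, not called). The last 2 called regions did not have the lowest adjusted p of their gene, comparison and direction and are given for completeness. The Sox11 region 48.6 kb downstream had 4.38 and 6.48 CPM in MGE, 1.96 and 2.11 in LGE, and 1.94 and 2.57 in CGE (1.40 and 1.26, adjusted p = 0.0273 and 0.0420), and neither was called with the offset (adjusted p = 0.695 and 0.249). The Sox2 region 20.4 kb upstream, over an exon of Sox2ot, had 2.54 and 1.86 CPM in MGE, 0.64 and 0.67 in LGE, and 3.01 and 2.49 in CGE (MGE against LGE 1.74, SE 0.37, adjusted p = 0.0237, and -0.19 with adjusted p = 0.857 with the offset).

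No member region was called between LGE and CGE with edgeR, against 0.00293% of all regions, and 6 of the 35 had an unadjusted p under 0.05, as did 8247 of all 68274. DESeq2 called 2, and 4.03% of all regions. The lowest p belonged to the same Sox2 region 20.4 kb upstream, lower in LGE by -2.06 (SE 0.37, adjusted p = 0.116, and 0.000282 by DESeq2). Its peaks covered 218 and 350 bp in LGE and 1197 and 1258 bp in CGE, and with the offset the difference was 0.12 (adjusted p = 0.869).

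**Figure D3:**
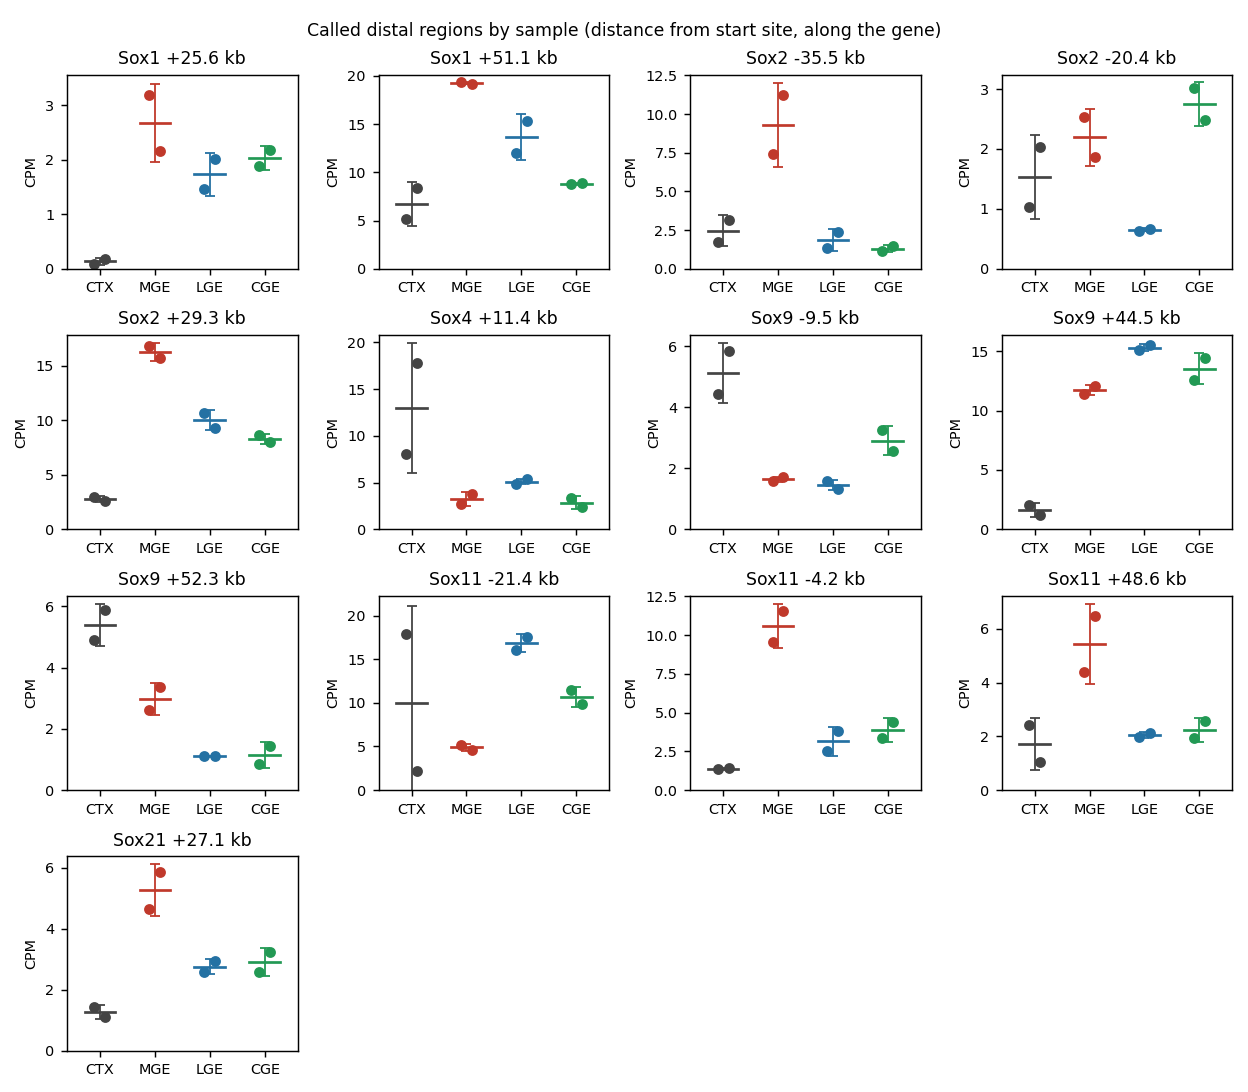
Accessibility (y axis, CPM of tested regions, from 0) of the 13 distal regions called in any comparison in each of the 8 samples (points) by forebrain region (x axis), with a line at the mean and bars of 1 SD (n = 2, cut at 0). The Sox9 region at +44.5 kb is at 2.04 and 1.25 CPM in CTX and at 11.4 to 15.5 CPM in GE, and the Sox2 region at -35.5 kb is at 7.40 and 11.2 CPM in MGE and at most 3.16 CPM elsewhere.

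The 2 CTX libraries differed from each other at more regions than the samples of any eminence, near the Sox genes and over all regions. After adding 0.5 CPM, they differed by over 2-fold at 10 of the 35 regions (28.6%, against 25.6% of all regions), while MGE did so at 2 (5.71%, against 5.49%) and LGE and CGE at 0 (against 3.09% and 1.61%). Among the 10, the 4 regions near Sox11 (at -49.3, -21.4, -14.7 and +30.2 kb) were all higher in replicate 1. The Sox9 regions at -25.3 and +19.5 kb and the Sox1 region at +13.2 kb were higher in replicate 2, with 10.3, 16.3 and 1.64 CPM against 1.17, 5.70 and 0.12 CPM. Near Sox4, the regions at -35.7 and +11.4 kb were higher in replicate 2 and the region at +18.1 kb in replicate 1 (1.81 and 0.33 CPM). With 1 library of each, these are values of 2 libraries with no test.

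Nuclei were next divided within each sample by their accessibility elsewhere in the genome. They were clustered without the 35 member regions, and clusters were named progenitor-like, GABAergic-like or glutamatergic-like from marker genes that include no Sox gene. The latter pair are called neuron-like together. At least 50 nuclei of both classes were present in 7 samples, all but CTX replicate 2. In the 6 eminence samples between 1089 and 3181 nuclei were progenitor-like. The 796 progenitor-like nuclei of CTX replicate 1 formed a cluster of that library alone, and with finer clusters (Leiden resolution 1.0 in place of 0.5) they took the glutamatergic-like name, which left 6 samples with both classes. Values are CPM of all peak counts of the class. They are descriptions, without a test, since the nuclei of a sample are not replicates.

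The SOXB and SOXE windows were more open in progenitor-like nuclei of all 7 samples. The SOXC windows were less open in all 7, a direction that 35.5% of gene windows shared. Sox21 had 277 to 364 CPM in progenitor-like nuclei and 123 to 163 CPM in neuron-like nuclei, a mean log2 ratio of 1.21 ± 0.25 (SD, n = 7). For Sox2 the ranges were 527 to 671 CPM and 257 to 427 CPM (1.03 ± 0.25), and for Sox1 343 to 732 CPM and 184 to 488 CPM (0.93 ± 0.21). Sox9 had 227 to 260 CPM against 133 to 170 CPM (0.69 ± 0.16). The ratio was above 0 in 7 of 7 samples for each of these 4 genes, as it was for 16.7% of the 19035 gene windows, whose median ratio was -0.08. MGE replicate 1 had the lowest ratio for Sox1, Sox2 and Sox21.

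Sox11 had 128 to 218 CPM in progenitor-like and 185 to 282 CPM in neuron-like nuclei (-0.38 ± 0.10), and Sox4 had 143 to 220 CPM against 177 to 241 CPM (-0.19 ± 0.08). The ratio was below 0 in 7 of 7 samples for both, as it was for 35.5% of windows. The mean ratio of Sox11 was at the 11.4th percentile of all windows and that of Sox4 at the 30.8th. The ratio of Sox11 was lowest in CTX replicate 1 (128 and 189 CPM, -0.56).

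**Figure D4:**
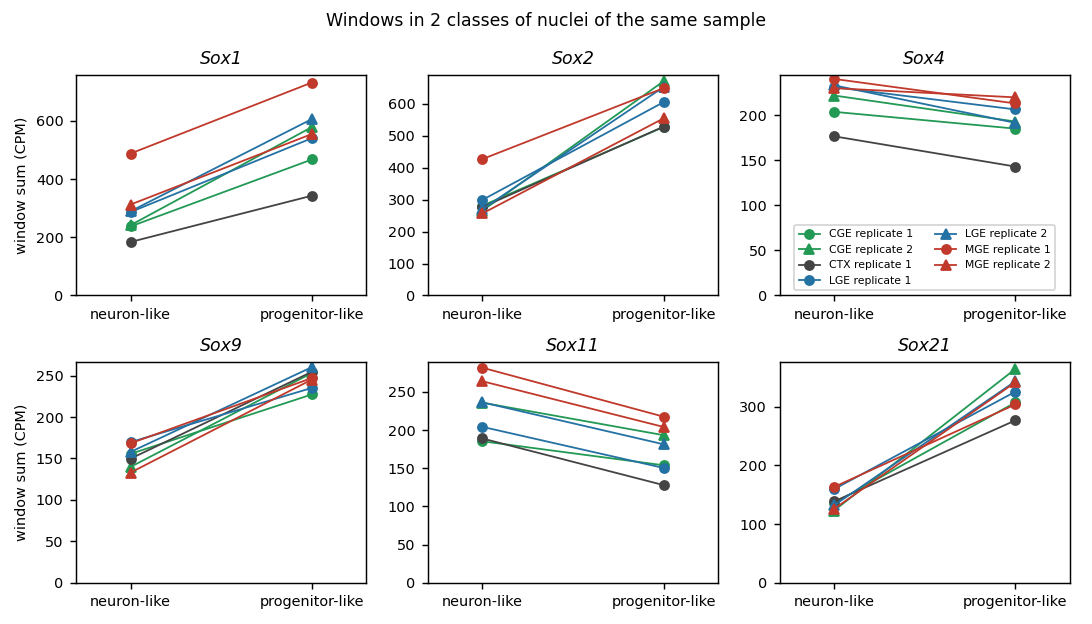
Window sums of the 6 Sox genes (y axis, CPM of all peak counts of the class, from 0) in neuron-like and progenitor-like nuclei (x axis) of 7 samples, with a line joining the 2 classes of a sample. Lines rise in all 7 samples for Sox1, Sox2, Sox9 and Sox21 and fall in all 7 for Sox4 and Sox11.

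Single regions followed their gene in part. Of the 35 regions, 19 were above 0 in all 7 samples (54.3%, against 20.9% of all regions) and 8 were below 0 in all (22.9%, against 27.3%). The 19 comprised 6 regions near Sox1, 4 each near Sox2 and Sox9, 2 each near Sox4 and Sox21, and 1 near Sox11. The 8 comprised 3 each near Sox4 and Sox11 and 1 each near Sox1 and Sox2. Some of these signs rest on few counts. The Sox1 regions 13.2 and 25.6 kb downstream, among the 19, had as few as 2 progenitor-like counts in a sample. Their lowest ratios were 0.05 and 0.02. The Sox2 region 20.4 kb upstream, among the 8, also had as few as 2. The start-site regions had mean log2 ratios of 1.25 ± 0.25 for Sox21, 1.04 ± 0.24 for Sox2, 0.79 ± 0.21 for Sox1, 0.54 ± 0.19 for Sox9, -0.19 ± 0.05 for Sox4 and -0.47 ± 0.07 for Sox11 (SD, n = 7). Thus 4 were above 0 and the 2 SOXC regions below 0 in every sample.

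Distal regions went both ways within a window. Near Sox1, the region 36.4 kb downstream, over an exon of Sox1ot, was more open in progenitor-like nuclei (a mean of 140 against 42.4 CPM, 1.73 ± 0.29), and the region 51.1 kb downstream, the one lower in CTX and highest in MGE, was more open in neuron-like nuclei (8.81 against 14.7 CPM, -0.67 ± 0.31). The Sox9 region 19.5 kb downstream had the highest ratio of the members (13.6 against 3.26 CPM, 1.92 ± 0.29), while the Sox9 region 44.5 kb downstream varied between samples (-0.59 ± 0.78, above 0 in 2 of 7). Near Sox4, the region 18.1 kb downstream had 1.89 against 6.45 CPM (-1.45 ± 0.37, below 0 in 7 of 7), and the region 35.7 kb upstream 8.57 against 5.53 CPM (0.59 ± 0.30, above 0 in 7 of 7). Near Sox11, the region 21.4 kb upstream, lowest in MGE among the eminences, had 14.4 against 7.96 CPM (0.74 ± 0.46, above 0 in 7 of 7), and the region 48.6 kb downstream, higher in MGE, had 1.75 against 4.03 CPM (-0.92 ± 0.62, below 0 in 7 of 7).

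Within neuron-like nuclei, the GABAergic-like and glutamatergic-like classes were compared, and the difference depended in part on how finely the nuclei were clustered. In the 4 LGE and CGE samples the Sox1 window had 330 and 190 CPM in LGE replicate 1, 316 and 204 in LGE replicate 2, 284 and 162 in CGE replicate 1, and 289 and 179 in CGE replicate 2 (GABAergic-like first). The mean log2 ratio was 0.73 ± 0.09 for Sox1, 0.60 ± 0.12 for Sox2, 0.45 ± 0.09 for Sox21 and 0.38 ± 0.09 for Sox9 (SD, n = 4). For Sox4 it was 0.11 ± 0.06. The share of all gene windows with such ratios was not computed. For Sox11 it was -0.08 ± 0.16, above 0 in both CGE samples and below 0 in both LGE samples. With finer clusters CGE replicate 2 had 465 glutamatergic-like nuclei in place of 1172, and its values came to 267 and 241 CPM for Sox1, 279 and 286 for Sox2 and 122 and 147 for Sox21, so that Sox2 and Sox21 were no longer higher in the GABAergic-like class. LGE replicate 2 also had fewer glutamatergic-like nuclei then, and its Sox1 difference was smaller. LGE replicate 1 had 709 such nuclei in place of 880, with 346 and 197 CPM for Sox1. The other 2 samples with both classes held few nuclei of one of them and went a different way for part of the genes. In CTX replicate 1, with 137 GABAergic-like nuclei, the ratio was 0.31 for Sox1 and 0.58 for Sox2 but -0.87 for Sox21, -0.56 for Sox9 and -0.44 for Sox4. In MGE replicate 2, with 66 glutamatergic-like nuclei, it was 0.88 for Sox1, 0.30 for Sox2, 0.55 for Sox21, 0.35 for Sox9 and -0.11 for Sox4.

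In the motif table of Cell Ranger ATAC, the tool named in the submitters' processing notes, the count of a motif in a nucleus is the sum over peaks with a match to it. Motif CPM are relative to the sum over the 579 motifs. The 14 SOX motifs together took 3.05% to 3.46% of the motif counts. Levels ran from 92.7 CPM (SOX8, LGE replicate 2) to 14236 CPM (Sox5, CTX replicate 1), and the level of a motif reflects how many peaks match it, so levels are not compared between motifs. The spread between samples was small. The highest sample exceeded the lowest by a median of 1.35-fold over the SOX motifs, against 1.43-fold over all motifs.

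No SOX motif was called by edgeR in any of the 4 comparisons, and neither was any other motif (0.0% of 579). An unadjusted p under 0.05 was found for 1 SOX motif of 126 motifs between CTX and GE, 1 of 25 between MGE and LGE, 2 of 17 between MGE and CGE and 2 of 60 between LGE and CGE. They concerned SOX8, SOX4 and SOX13, the last with 307 to 422 CPM over the 8 samples and -0.26 in MGE against CGE (SE 0.09, adjusted p = 0.925). The SOX8 motif had 123 and 122 CPM in CTX, 97.7 and 103 in MGE, 97.7 and 92.7 in LGE, and 122 and 123 in CGE, so that CTX and CGE lay above MGE and LGE in every sample (LGE against CGE -0.37, SE 0.09, adjusted p = 0.441). The SOX4 motif had 134 and 149 CPM in CTX, 148 and 131 in MGE, 180 and 168 in LGE, and 129 and 117 in CGE, with LGE highest (LGE against CGE 0.50, SE 0.11, adjusted p = 0.441). DESeq2 called both in LGE against CGE, where it called 2.42% of all motifs (adjusted p = 0.000753 for SOX8 and 0.00732 for SOX4), and also SOX8 in CTX against GE (0.23, adjusted p = 0.000519, with 14.2% of all motifs called) and in MGE against CGE (-0.31, adjusted p = 0.0182, with 1.21%). Of the other motifs, Sox3 had 1998 to 2953 CPM over the 8 samples, Sox17 2236 to 2490 and Sox6 1193 to 1390. SOX10 had 1255 to 1464 CPM, SOX15 844 to 971 and Sox11 193 to 272.

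The Sox2 motif stood out by library and not by region. It had 5512 CPM in MGE replicate 1 and 5156 CPM in LGE replicate 1, and 8316 to 8902 CPM in the other 6 samples. These are the 2 libraries with the fewest peaks, and the part of the peak number in the Sox2 motif level was not tested. Between classes of nuclei the mean log2 ratios of progenitor-like over neuron-like for the SOX motifs ran from -0.07 (SOX4) to 0.14 (SOX8). The ratio was below 0 in 7 of 7 samples for SOX4 and SOX21 and above 0 in 7 of 7 for SOX8. It was also above 0 in 7 of 7 for SOX9, SOX10, SOX13, SOX15, Sox2, Sox3, Sox5, Sox6 and Sox17. For Sox1 it was above 0 in 6 samples and for Sox11 in 4. Ratios of motifs outside the SOX family were not computed. For the motifs named after the genes with large window ratios, the ratio was 0.04 for Sox2 and Sox1, 0.07 for SOX9 and -0.06 for SOX21. A motif count sums peaks over the genome and a window covers 1 locus, so the sizes of their ratios are not comparable.

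**Figure D5:**
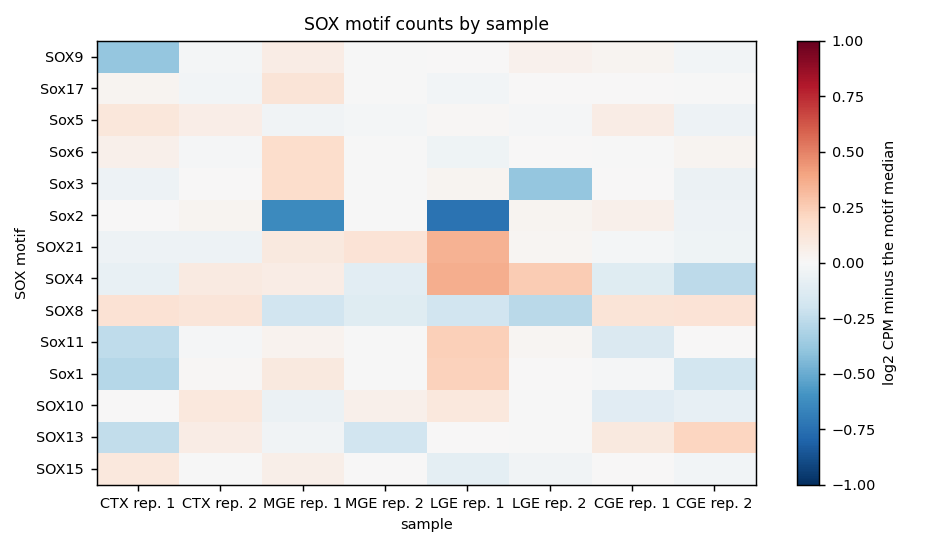
Log2 CPM of each of the 14 SOX motifs (rows) in the 8 samples (columns), minus the median of the motif over the samples (colour scale, from -1 to 1). The Sox2 motif is low in MGE replicate 1 and LGE replicate 1 (5512 and 5156 CPM), and no row separates the 4 regions by a wide step.

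Other genes of the family and pathway were taken from fixed lists and tested as windows. Of all windows, 5.34% were called higher and 0.904% lower in CTX. Of 13 other Sox genes, Sox5 was higher in CTX (426 and 297 CPM against 201 to 250 in GE, 0.71, SE 0.14, adjusted p = 0.0232) and Sox10, an oligodendrocyte lineage gene, was lower (29.5 and 39.0 CPM against 46.2 to 102, -0.77, SE 0.17, adjusted p = 0.0383). Of 10 partners of SOX proteins and progenitor genes, Pax6 was higher in CTX (147 and 162 CPM against 72.7 to 122, 0.60, SE 0.08, adjusted p = 0.00799), and 0 were lower. Of 5 genes listed as neuronal (Tubb3, Dcx, Stmn2, Mapt and Tead2), 1 was called lower in CTX (Tubb3, 75.0 and 71.2 CPM against 87.5 to 121, -0.46, SE 0.11, adjusted p = 0.0474) and 0 higher. Tead2 and Dcx went the other way without a call (0.54 and 0.11, adjusted p = 0.0512 and 0.863). The Dcx window had 40.2 CPM in CTX replicate 1 and 15.2 CPM in CTX replicate 2, on either side of the 20.2 to 32.5 CPM of GE. Between the eminences 0 of these 28 genes were called by edgeR (0.106%, 0.127% and 0.0% of all windows). An unadjusted p under 0.05 was found for 5 between MGE and LGE, 7 between MGE and CGE and 2 between LGE and CGE. Of all 19737 windows, 1979, 2432 and 640 had such a p. The median log2 fold for CTX against GE was -0.11 over the other Sox genes and 0.02 over the partners and progenitor genes. It was -0.13 over the 5 genes listed as neuronal, Tead2 among them, and 0.01 over all windows.

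The genes whose window sums varied most like a member over the 8 samples, on other chromosomes, were Ppp3cc and Grm4 for Sox1 (Pearson r = 0.99 for both), Vars and 1700016K19Rik for Sox2 (0.98), Actr1a and Hrg for Sox11 (0.99 and 0.98) and Sim1 and Tcirg1 for Sox21 (0.98 and 0.97). For Sox9 they were Mif and Marveld1 (0.92 and 0.91) and for Sox4 BC024063 and Ndufa12 (0.88 for both). The 8 points share libraries and their depth, and 128 windows reached r of 0.95 with Sox1 and 65 with Sox2.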

How the data were processed

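For each sample the authors deposited a peak list, raw counts per peak and nucleus and raw counts per motif and nucleus. The submitters' processing notes name Cell Ranger ATAC 1.2.0 and the builds GRCm38 and mm10. All deposited barcodes were kept, and for the rule behind them nothing was given in the sources used here. Total peak counts were 77387940 to 138873845 per sample, with a median of 14584 to 22210 per nucleus.

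Counts were summed over nuclei per sample and tested with edgeR 4.0.16 in R 4.3.3 (glmQLFit, glmQLFTest, TMM scaling, filterByExpr) over 68274 regions, over windows around protein-coding genes of GENCODE M21 and over 579 motifs. Features were called at 0.05 or less after Benjamini-Hochberg adjustment across the whole table. CTX was compared with the mean of the 3 eminences on 8 samples, and eminences with each other on the 6 GE samples, because the CTX samples differ in age. Scripts were tested on simulated data. Nuclei were clustered with Leiden at resolution 0.5 on 30 TF-IDF components, in double precision and rounded, of regions other than members. A cluster took a name when at least 3 markers of a list exceeded a log2 fold of 0.5. No doublet caller was run, and leaving out nuclei over 2 times their sample's median count was an alternative. The log2 ratio of a region between classes was taken after adding 0.5 CPM.

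All 6 genes and all 14 motifs are named. Regions are named when they cover a start site or had the lowest adjusted p of their gene, comparison and direction, or the lowest p where a comparison had no call. Other regions were chosen after their values were seen. Alternatives were DESeq2 1.42.0, library totals, no filter, a replicate block, an offset of covered length, other region sets and leaving out each sample. The members, lists and rules were chosen with earlier results of these data known. No protein sequences are shown. The sequence of 1 further region is not reported here.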

Additional observations from a re-analysis of the deposited data

Results flagged for a closer look

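Of 43 sets of samples examined for a value far from the rest, 2 were marked, and chance marks about 1 in 20. The Sox17 motif had 2490 CPM in MGE replicate 1 and 2236 to 2291 CPM in the other 5 eminence samples. The Sox6 motif had 1390 CPM in the same library and 1193 to 1256 CPM in the others. MGE replicate 1 also had a low Sox2 motif level and the second fewest peaks, and the part of its peak list in these values was not tested.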

How the results depend on the processing

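The 10 member regions called in CTX against GE (14.9% of all regions) became 6 with the offset (9.17%), 5 over all merged regions (5.97%) and 5 to 15 when 1 sample was left out (15 without CTX replicate 2, 26.3%, and 5 without CGE replicate 2, 6.26%). The 5 in MGE against LGE (10.6%) became 9 with DESeq2 (16.7%), 0 with all 8 samples in one model (0.694%), 2 over all merged regions (3.92%) and 3 to 5 with 1 sample left out. The 6 in MGE against CGE (9.4%) became 0 with all 8 samples in one model (0.325%) and 1 to 7 with 1 sample left out, 1 without CGE replicate 1 (3.07%) or CGE replicate 2 (2.87%). The 0 in LGE against CGE became 2 with DESeq2 (4.03%). The 1 member window called in CTX against GE (Sox1) became 0 with the replicate block, the offset or the gene body with 2000 bp upstream, and 0 to 1 with 1 sample left out. The 0 in MGE against CGE became 1 with DESeq2 and 0 to 1 with 1 sample left out. DESeq2 called 1 SOX motif between CTX and GE (14.2% of all motifs), 1 between MGE and CGE (1.21%) and 2 between LGE and CGE (2.42%). Over whole regions, which are of unequal length, the SOX letters were in 33 of 35 (94.3%, against 84.1% of all regions). Directions turned in CTX against GE for 3 windows near 0: the Sox4 window (0.0013 over regions with a peak in all 8 samples), the Sox9 window (-0.018 to 0.14 with 1 sample left out, lowest without CTX replicate 2, -0.43 with the offset, -0.071 over the gene body) and the Sox11 window (-0.31 to 0.076 with 1 sample left out, highest without CTX replicate 2). The called Sox9 region 52.3 kb downstream (1.79, adjusted p = 0.00855) turned to -0.080 with the offset, that 9.5 kb upstream from 1.43 to -0.09, and the Sox2 region 20.4 kb upstream from 1.74 to -0.19 in MGE against LGE. The latter also turned to 0.12 in LGE against CGE. The cause was not tested. The labels name no batch behind the replicate numbers. Odd values made up 9.54% to 10.4% of the count entries in the replicate 1 libraries and 5.17% to 5.85% in the replicate 2 libraries, and the part of this difference in the results was not tested. Correlations of the deviations of samples with the same number ran from -0.29 to 0.68 over windows, from -0.03 to 0.49 over regions and from -0.46 to 0.40 over motifs, each above 0.1 for 3 of the 6 pairs of groups. The 3 were the pairs of eminences (0.29 to 0.40) for motifs, and LGE with CGE, CTX with LGE and CTX with CGE for windows and regions. With the replicate block 11, 7, 6 and 0 member regions were called in the 4 comparisons (13.7%, 10.9%, 9.45% and 0.0% of all regions) and 0 SOX motifs in any. The mean class ratios of the 6 windows kept their direction with finer clusters (n = 6, since CTX replicate 1 then had 0 progenitor-like nuclei) and without nuclei of high counts. Cluster names depended on numerical detail: a first clustering in single precision, which changed with the number of computing threads, left most progenitor nuclei of LGE replicate 1, CGE replicate 1 and CTX replicate 1 without that name, and it was replaced, after its result was seen, by one in double precision with rounding. With 2 samples per group and CTX samples of unlike makeup, small differences could not be shown, and an eminence contrast rests on a spread estimated from 6 samples.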
